A study of Mus musculus with 6 samples.

Results

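Mouse chromosome 4 carried a small, region-wide difference between sarcoma cells with a hairpin against Postn and their controls, and 479 genes of its distal part are described here. The members are the genes of chromosome 4 that start past 60 Mb on the GRCm38 (mm10) assembly and have a mean above 4 CPM (read counts scaled to a common library total) over the 6 libraries. They are 479 of the 1430 genes that the deposited table lists in this stretch, and of 35727 genes in all. Of these, 475 are protein-coding genes and the rest pseudogenes. The 186 chromosome 4 genes that start at or before 60 Mb and pass the same level serve as the contrast and are called proximal. The stretch was chosen by the fold changes between the groups in these same libraries, which were mostly negative, so the size of that shift is given as a description, without a test.

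All libraries came from 1 syngeneic tumour line, named p53 KO Ccne1 OE. It was made from mesenchymal stem cells of female C57/Bl6 mice lacking p53, which received a retrovirus for overexpression of cyclin E1 (Ccne1) and a red fluorescent tracer, and was carried through wild-type female hosts before use. The controls (shSCR, 3 libraries) carried a scrambled hairpin and the other cells (shPostn, 3 libraries) a hairpin against Postn, the gene of the matricellular protein periostin; titles call the latter a knockout, although the protocol describes a hairpin. Both sets of cells were transplanted, the tumours were harvested and red fluorescent cells were sorted for sequencing of polyadenylated RNA. The labels name 1 line per hairpin and are silent on whether each library is a tumour of its own, so every p measures the spread between these libraries only. A difference between the lines that arose apart from periostin cannot be told apart from an effect of the hairpin.

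Neighbouring genes of a chromosome share parts of its chromatin structure, while each gene also has promoters and enhancers of its own. Distal mouse chromosome 4 holds, in conserved order, many genes of the short arm of the largest human chromosome, as well as the Cdkn2a and Cdkn2b locus of cell cycle inhibitors. It also holds genes of matrix proteins, receptors, splicing factors and ribosomal proteins, which have little in common beside their position.

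Among members called apart from the rest of the region whose libraries did not overlap between groups, Lepr and Plpp3 stood farthest above it, and Car6 and Tinagl1 farthest below it. Their promoters are shown because all 4 lie in the same shifted stretch while their transcripts moved far from it. Each sequence is the 250 bases before the RefSeq transcription start (GRCm38.p6), written from 5′ to 3′, with CG dinucleotides in capitals. They come from chr4:101717157-101717406, plus strand (Lepr), chr4:105157097-105157346, plus strand (Plpp3), chr4:150201136-150201385, minus strand (Car6) and chr4:130175123-130175372, minus strand (Tinagl1).
Lepr: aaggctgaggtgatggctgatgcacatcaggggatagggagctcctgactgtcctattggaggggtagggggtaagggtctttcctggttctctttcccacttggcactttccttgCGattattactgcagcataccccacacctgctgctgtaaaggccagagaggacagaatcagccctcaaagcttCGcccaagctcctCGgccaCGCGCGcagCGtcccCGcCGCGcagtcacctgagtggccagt
Plpp3: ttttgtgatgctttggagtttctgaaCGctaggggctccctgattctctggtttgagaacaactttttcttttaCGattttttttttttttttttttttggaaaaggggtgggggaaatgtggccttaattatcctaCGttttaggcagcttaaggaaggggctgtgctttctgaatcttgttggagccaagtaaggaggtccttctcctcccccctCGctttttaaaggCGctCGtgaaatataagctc
Car6: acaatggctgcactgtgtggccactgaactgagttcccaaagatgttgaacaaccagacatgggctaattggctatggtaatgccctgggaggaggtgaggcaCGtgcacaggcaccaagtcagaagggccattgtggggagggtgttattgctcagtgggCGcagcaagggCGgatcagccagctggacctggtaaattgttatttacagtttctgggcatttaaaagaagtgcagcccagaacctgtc
Tinagl1: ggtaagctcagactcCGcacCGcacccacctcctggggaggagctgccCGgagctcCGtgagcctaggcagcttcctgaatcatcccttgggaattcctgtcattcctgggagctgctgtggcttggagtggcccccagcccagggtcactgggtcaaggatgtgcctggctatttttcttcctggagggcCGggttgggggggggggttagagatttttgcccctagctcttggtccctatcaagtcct
These windows hold 10, 6, 3 and 5 CG dinucleotides. The observed count over that expected from the base composition was 0.469, 0.546, 0.183 and 0.217, so none of these promoters reached the 0.6 used below to call a promoter CpG-rich.

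Library totals lay between 19603269 and 20376554 counts, with 15901 to 16666 genes detected. Libraries of a group differed well beyond sampling noise, with a chi-square per degree of freedom of 9.756 to 10.654 between shSCR libraries and 25.907 to 54.801 between shPostn libraries. Postn measured 4095, 3600 and 3223 CPM in shSCR and 217, 471 and 638 CPM in shPostn. The library shPostn replicate 3 stood apart by its macrophage markers. The 11 of 14 listed markers that lie outside the region summed to 899 CPM there, against 90.3 to 232 CPM in the other 5 libraries. None of the 11 passed the test between groups, and the 12 summed pan-leukocyte markers reached 435 CPM there against 196 to 261 CPM elsewhere. The 10 mesenchymal markers, genes such as Col1a1 and Pdgfrb that fit the labelled cell type, summed to 36221 to 55793 CPM over the libraries. Summed T cell markers stayed between 1.82 and 3.84 CPM, endothelial markers between 2.15 and 8.33 CPM and erythroid markers between 0.152 and 27.6 CPM. The highest of each of these sums, and of the mesenchymal sums, was that of shPostn replicate 3. In such bulk samples, fewer cells of a type and less RNA per cell cannot be told apart.

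Distal chromosome 4 genes were lower in every shPostn library than in any shSCR library when each library was summarised by its median member. Relative to the mean of the 3 shSCR libraries on the scale of log2 (CPM + 0.5), the median member stood at −0.21, −0.20 and −0.14 in shPostn replicates 1, 2 and 3. The same median was −0.01, 0.005 and 0.01 in the shSCR libraries, each of which is itself part of that mean. Compared with the other 2 shSCR libraries only, the shSCR medians were −0.02, 0.01 and 0.01. The members below the shSCR mean numbered 390, 387 and 353 of 479 in the shPostn libraries and 278, 228 and 214 in the shSCR libraries. The region held 5.67%, 5.61% and 5.65% of all counts in the shSCR libraries and 5.08%, 5.0001% and 5.29% in the shPostn libraries, again without overlap. The proximal part held 1.91%, 1.93% and 1.88% in shSCR and 1.84%, 1.79% and 1.84% in shPostn, also without overlap. Its medians did not overlap either, at −0.009, −0.004 and 0.004 in shSCR and −0.09, −0.09 and −0.02 in shPostn. Lack of overlap was thus not particular to the distal part. Averaged over libraries, the shPostn median was −0.18 ± 0.04 and the shSCR median 0.001 ± 0.01 (SD, n = 3 each).

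**Figure D1:**
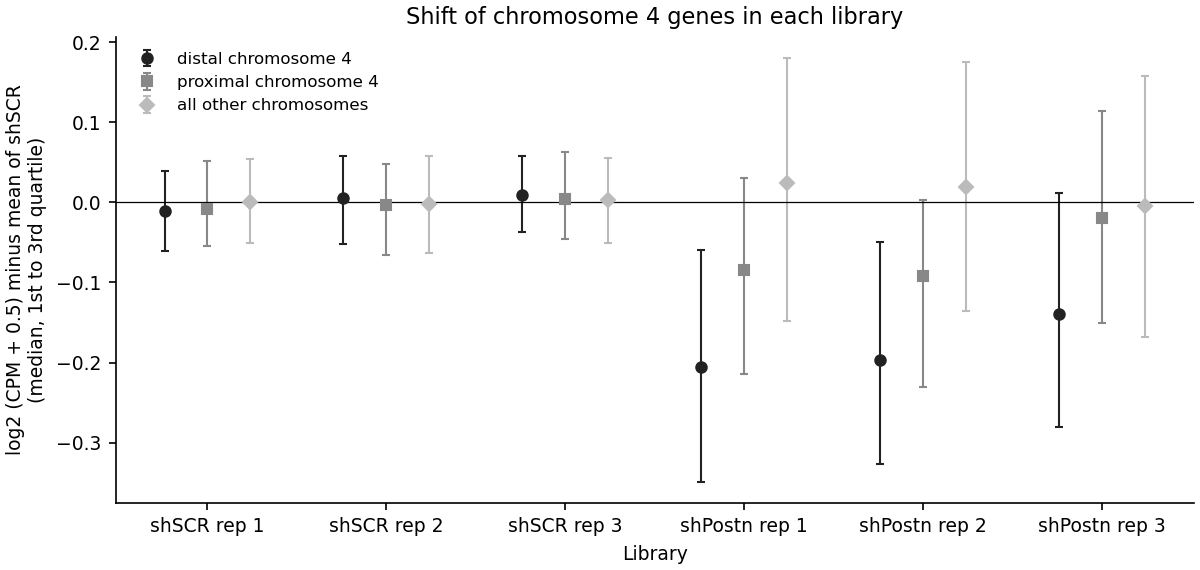
Median and quartiles of log2 (CPM + 0.5) minus the mean of the 3 shSCR libraries, for 479 distal and 186 proximal chromosome 4 genes and 9893 genes of other chromosomes. The distal medians of the shPostn libraries (−0.21, −0.20 and −0.14) lie below all shSCR medians, with the smallest displacement in shPostn replicate 3.

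The displacement was smallest in shPostn replicate 3, the library with the highest macrophage markers. Without that library the median log2 fold change of the members was −0.19 instead of −0.17. Among members, 7 were over 2-fold higher in shPostn replicate 3 than in both other shPostn libraries, namely the complement genes C1qa, C1qb and C1qc, the leukocyte membrane gene Laptm5, the phosphoinositide 3-kinase gene Pik3cd, the syndecan gene Sdc3 and the protease gene Pappa. C1qa, a complement subunit made by macrophages, measured 19.2, 10.7 and 4.62 CPM in shSCR and 5.90, 4.09 and 117 CPM in shPostn. Its groups overlap, and 1 library alone is high. Leaving these 7 genes out moved the shPostn replicate 3 median from −0.139 to −0.145. A median over this many members moves little whichever 7 are left out, so nothing is read from this step. The part of the macrophage signal in the smaller shift of the whole region was not tested. Proximal genes and chromosome 12 genes were also closest to the controls in this library, with medians of −0.02 and 0.25, against −0.09 and −0.09 for the proximal genes and 0.50 and 0.40 for chromosome 12 in replicates 1 and 2. Chromosome 18 genes differed little between these libraries, at −0.439, −0.458 and −0.436, with replicate 3 closest by a narrow margin.

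The fold change between groups was small and shared by most members. The median member had a log2 fold change (shPostn minus shSCR) of −0.17, which is 88.8% of the control level, and the middle 50% of members lay between −0.29 and −0.05. Of 479 members 387 (80.8%) had a negative value, against 5120 of 10570 genes above the same level (48.4%). Proximal genes had a median of −0.07, with 125 of 186 negative (67.2%), so the difference between both parts of the chromosome was −0.10. The medians of the 17 chromosomes other than 4, 12 and 18 lay between −0.06 and 0.08. Chromosome 12 had a median of 0.39 over 374 genes and chromosome 18 one of −0.45 over 281 genes. Distal chromosome 4 was thus the smallest of these displacements, and its proximal part lay just outside the range of the other chromosomes.

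**Figure D2:**
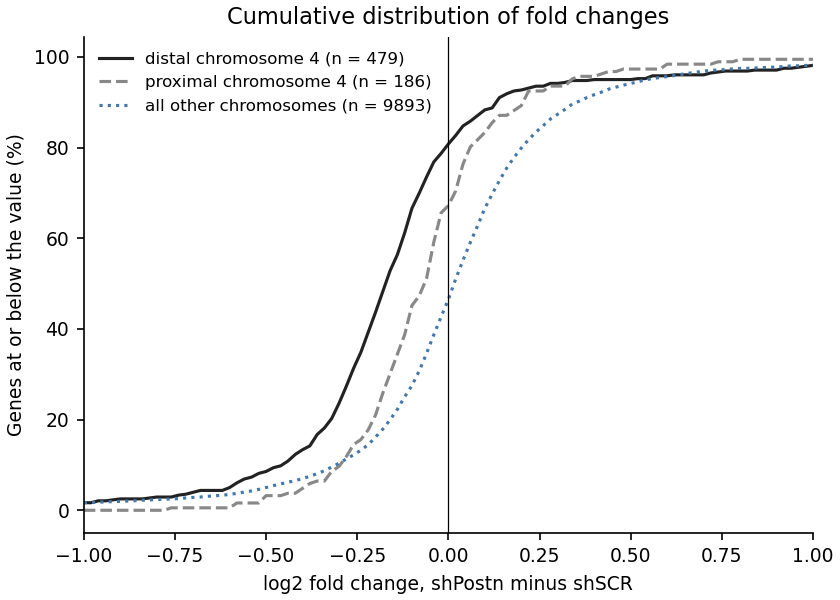
Cumulative share of genes (%) against the log2 fold change, for distal and proximal chromosome 4 genes and genes of all other chromosomes. The curve of the distal genes lies left of the others through the middle of the distribution, with 80.8% of genes below 0 against 67.2% of proximal genes and 46.5% of the genes of other chromosomes.

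Along the chromosome the displacement was present in each window of the distal part. Medians of the 10 windows of 10 Mb past 60 Mb lay between −0.29 and −0.14, and those of the 6 windows before it between −0.10 and 0.02. The lowest median belonged to the window from 80 to 90 Mb, with 17 of 19 members negative. The windows from 130 to 140 Mb and from 150 to 160 Mb, with 108 and 64 members, had medians of −0.17 and −0.18. Relative to the shSCR mean, all 10 distal windows had a negative median in shPostn replicates 1 and 2, but also in shSCR replicate 1, where the lowest was −0.04. The count was 3 and 2 in shSCR replicates 2 and 3. In shPostn replicate 3 it was 9, the exception being the window from 60 to 70 Mb (0.03, 19 members). Values on both sides of 60 Mb were mixed. The last proximal genes above the level, Inip and Snx30, had log2 fold changes of −0.23 and −0.32, and the first members, the copper transporter gene Slc31a2 and the immunophilin gene Fkbp15, 0.02 and −0.07. At the other threshold, the members just above 4 CPM, Pik3r3 and Tnfrsf25, had values of −0.91 and −0.16, and the genes just below it, Tesk2 and Fv1, 0.05 and −0.43.

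**Figure D3:**
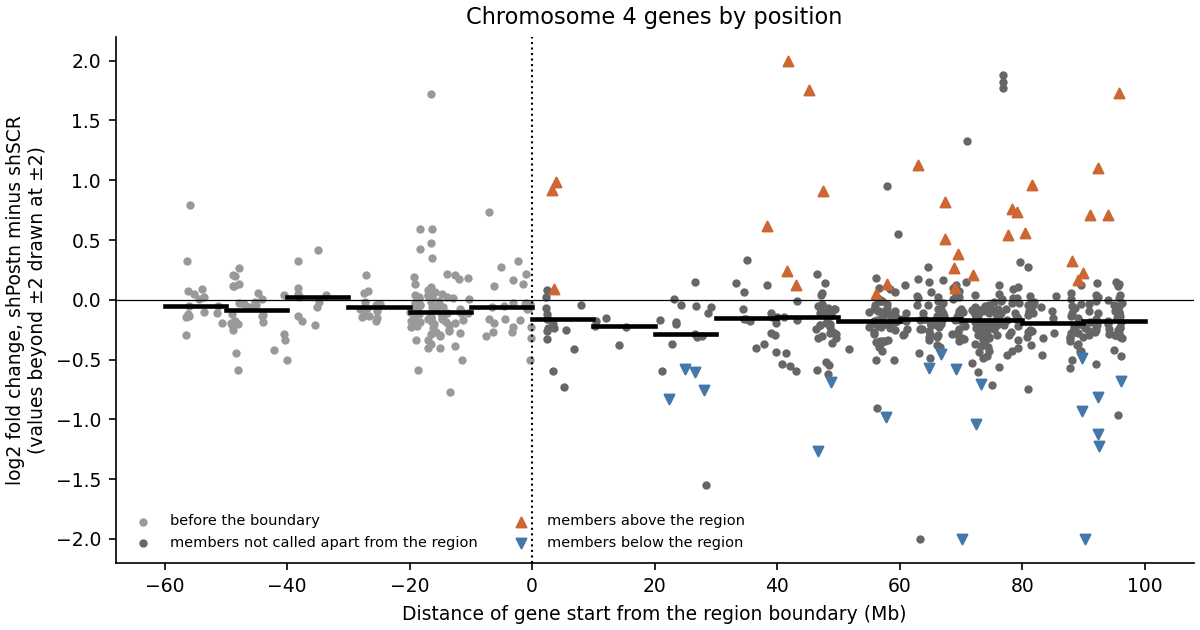
Log2 fold change of chromosome 4 genes above 4 CPM against the distance of their start from 60 Mb; horizontal bars are medians of 10 Mb windows, and triangles mark the 30 members above and 20 below the shift of the region (edgeR adjusted p under 0.05). Window medians lie between −0.29 and −0.14 right of the boundary, and Lepr, Heyl, Car6 and Tinagl1 are drawn at the edge of the scale.

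Read gene by gene, 92 members fell and 12 rose in shPostn by the edgeR quasi-likelihood test with Benjamini-Hochberg adjustment over all 12819 genes tested (adjusted p under 0.05). All 479 members were among the genes tested. Over all genes tested 10.1% changed, 5.53% fell and 4.61% rose; since the same contrast singled out the region, nothing is read from the members' share of 19.2% beside it. The shPostn libraries all lay below the shSCR libraries at 220 members and all above at 32, where 16.9% and 16.6% of all genes tested did so. Among proximal genes 8 of 186 fell and 2 rose. The number of members that fell was 25, 13 and 19 without shSCR replicate 1, 2 or 3, 35 without shPostn replicate 2 and 133 without shPostn replicate 3. Those that rose numbered 7, 5 and 6 without shSCR replicate 1, 2 or 3. Of the 104 members called with all libraries, 31, 18 and 25 were still called without shSCR replicate 1, 2 or 3. Without shPostn replicate 1, 2 or 3 the number was 66, 42 and 99. None changed sign when any 1 library was left out, but called members were unlikely to do so, and nothing is read from this.

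To find the genes that leave the shift, the median deviation of the members was taken out of each library's offsets and the same test run again over all genes. Of 479 members 30 then stood above the region and 20 below it, in total 10.4% of members. Over all genes tested 4.65% were higher and 4.91% lower in that fit. Members called apart from the region were thus about as frequent as called genes over all genes tested. Their number is therefore not read as a feature of the region. Of the members called apart, 4 above and 2 below had a mean of at most 4 CPM in 1 group. They became members only through the group where they were high, Lepr, Mycl, Rnf207, Car6 and Nphp4 among them. Such genes had to differ between groups to be members. All 12 that rose were among the 30, and 18 of the 30 had not passed the direct comparison. Of the 92 that fell, 20 were below the region and 72 were not called apart from it; their log2 fold changes ran from −2.96 to −0.22 around a median of −0.34. The lowest of these, Heyl, a Notch target, had an adjusted p of 0.0534 after the shift was taken out. The counts above were 12, 7 and 8 without shSCR replicate 1, 2 or 3, 14 without shPostn replicate 2 and 47 without shPostn replicate 3. The counts below were 5, 5 and 6 without shSCR replicate 1, 2 or 3, 13 without shPostn replicate 1 and 10 without shPostn replicate 2.

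Lepr, the leptin receptor (ENSMUSG00000057722; chromosome 4, 101717404 to 101815352, plus strand), stood farthest above the region among these members. It measured 2.21, 2.59 and 2.54 CPM in shSCR and 15.3, 18.8 and 32.7 CPM in shPostn. The members named farthest each way were chosen among those without overlap, so their lack of overlap is not a finding. Its departure, the log2 fold change left after the regional shift was taken out, was 3.35 (SE 0.29, edgeR adjusted p = 0.0033). Plpp3, a surface phosphatase that degrades lysophosphatidic acid and sphingosine-1-phosphate (ENSMUSG00000028517; 105157347 to 105232764, plus strand), measured 36.3, 41.0 and 37.9 CPM in shSCR and 112, 108 and 168 CPM in shPostn. All shPostn libraries were above the highest shSCR library, and the departure was 1.93 (SE 0.16, edgeR adjusted p = 0.00282). Vwa1, an extracellular matrix protein with a von Willebrand A domain (ENSMUSG00000042116; 155768149 to 155774698, minus strand), measured 10.6, 5.37 and 7.31 CPM in shSCR and 33.0, 21.4 and 23.0 CPM in shPostn. Its departure was 1.92 (SE 0.30, edgeR adjusted p = 0.0168).

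Among the next members above the region were genes of matrix, adhesion and transcription, and matrix and transcription genes also lay below it. Tnc, the matricellular protein tenascin C, measured 425, 332 and 454 CPM in shSCR and 707, 597 and 1087 CPM in shPostn, and departed by 1.16 (edgeR adjusted p = 0.0298). Its direct log2 fold change of 0.98 had an adjusted p of 0.0583, so it was called only relative to its region. The fibrillar collagen gene Col27a1 departed by 1.10, and Fblim1, which encodes the filamin-binding adhesion protein migfilin, by 1.15. Mycl, a MYC family transcription factor, departed by 1.32 and the zinc finger factor Glis1 by 1.10. Rnf207, a RING finger gene, rose from 3.10, 3.17 and 3.10 CPM to 6.97, 6.82 and 6.29 CPM, a departure of 1.29. At the small end, members such as Pgd, an enzyme of the pentose phosphate pathway, stood above the region while close to their control level. Pgd measured 192, 188 and 176 CPM in shSCR and 216, 198 and 211 CPM in shPostn (log2 fold change 0.17, adjusted p = 0.153; departure 0.35, adjusted p = 0.0241, both by edgeR).

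Below the region, Car6, a secreted carbonic anhydrase (ENSMUSG00000028972; 150187015 to 150201332, minus strand), lay farthest from it. It measured 15.1, 35.3 and 21.1 CPM in shSCR and 1.13, 1.42 and 0.749 CPM in shPostn, with no overlap and a departure of −4.24 (SE 0.42, edgeR adjusted p = 0.00537). Tinagl1, a secreted matrix protein related to tubulointerstitial nephritis antigen (ENSMUSG00000028776; 130164454 to 130175122, minus strand), measured 47.5, 44.8 and 25.2 CPM in shSCR and 6.51, 6.67 and 4.24 CPM in shPostn, a departure of −2.56 (SE 0.32, edgeR adjusted p = 0.00913). Kcnab2, an auxiliary subunit of voltage-gated potassium channels (ENSMUSG00000028931; 152390742 to 152477871, minus strand), measured 279, 326 and 265 CPM in shSCR and 124, 119 and 156 CPM in shPostn, a departure of −0.95 (SE 0.11, edgeR adjusted p = 0.00536). These genes were low in all 3 shPostn libraries, which their choice among members without overlap required. Sesn2, a stress-induced inhibitor of mTOR signalling, departed by −0.85, the glycine transporter gene Slc6a9 by −0.79 and the mitochondrial pyrimidine nucleotide carrier gene Slc25a33 by −0.74. The acyl-CoA thioesterase gene Acot11 departed by −1.09 and the ciliary gene Nphp4 by −1.04. The transcription factor gene Nfib departed by −0.64 and the chromatin remodeller gene Chd5 by −0.63. Of the 20 members that the rule names above and below the region, 8 were called with any 1 library left out, among them Lepr, Plpp3, Rnf207, Car6, Tinagl1, Kcnab2 and Sesn2. The other 12 each lost their call without at least 1 library; their highest edgeR adjusted p ranged from 0.0646 (Col27a1) to 0.158 (Acot11), in both cases without shSCR replicate 2.

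**Figure D4:**
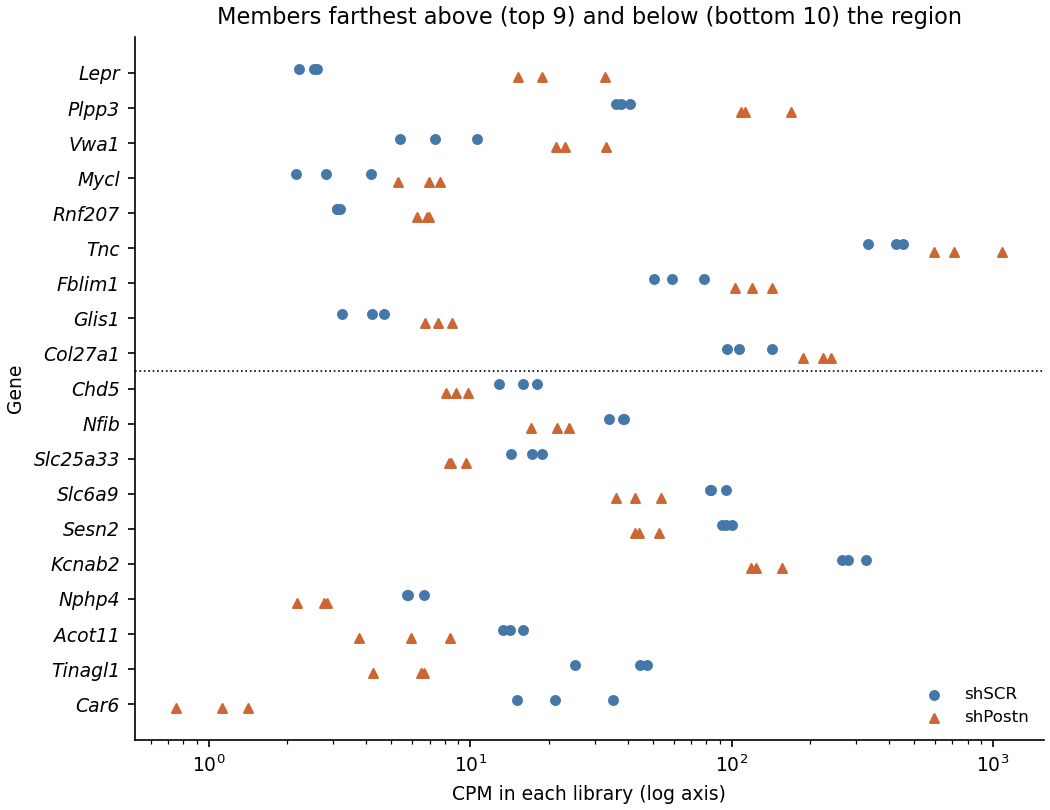
CPM in each of the 6 libraries (log axis) for the 9 members farthest above and the 10 farthest below the shift of the region. The genes were chosen among members whose libraries do not overlap, so the 3 shPostn libraries lie on 1 side of the 3 shSCR libraries by choice. Values run from Lepr (2.21 to 2.59 against 15.3 to 32.7 CPM) to Car6 (15.1 to 35.3 against 0.749 to 1.42 CPM).

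Several departing members were neighbours, and not all neighbours moved the same way; these groups were picked out after their values were seen. Of 6 pairs of departing members with no other member between them, 5 departed in the same direction. How many such pairs departing members placed at random would form was not worked out, so nothing is read from this count. From 152307019 to 152563183 lie Rnf207, the ribosomal protein gene Rpl22, Chd5, Kcnab2 and Nphp4. Rnf207 rose (log2 fold change 1.10), Rpl22 stayed near the regional value (−0.11, adjusted p = 0.342, edgeR), and Chd5 (−0.82), Kcnab2 (−1.12) and Nphp4 (−1.22) fell. Kcnab2 and Nphp4 lie on opposite strands and overlap at their ends, and whether the counting used strand is not given in the sources used here, so their counts are less certain. Leprot, which encodes an endosomal protein and lies just before Lepr, measured 182, 182 and 180 CPM in shSCR and 226, 206 and 210 CPM in shPostn. Its rise of 0.24 (adjusted p = 0.0493, edgeR) stood beside one of 3.18 for Lepr. Between Col27a1 and Tnc, the tested genes Akna, Whrn, Atp6v1g1 and Tmem268 had log2 fold changes of −0.20, −0.59, 0.09 and −0.24, of which that of Whrn passed the direct comparison. Slc25a33 and its neighbour Tmem201 fell (−0.93 and −0.49), while Spsb1, the next member, stood at 0.23 and above the region by 0.41.

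Members were also described by their level, which the choice of members used through its limit of 4 CPM, and by length, strand and promoter, which it did not. In 4 groups of equal size by mean CPM the median log2 fold change was −0.18, −0.19, −0.17 and −0.15 from the lowest to the highest, while the interquartile range went from 0.37 to 0.20. By gene length, grouped likewise, it was −0.15, −0.16, −0.17 and −0.20 from the shortest to the longest. Genes on the plus and the minus strand had medians of −0.18 and −0.16. RefSeq promoters matched 403 of 479 members by symbol. A promoter was called CpG-rich where the 250 bases before the start (the first listed start of a gene) had a CG count over 0.6 of that expected and a GC content over 50%. This held for 69.2% of the matched members and 31.2% of all 27025 genes with a promoter, which include genes not expressed here. Among 7756 genes of other chromosomes above 4 CPM it held for 67.4%, close to the members' share. Members with CpG-rich and CpG-poor promoters had medians of −0.17 over 279 and −0.16 over 124 genes. Their interquartile ranges were 0.22 and 0.33, and 22 (7.89%) and 21 (16.9%) of them departed from the region. The shares called in each promoter class over all genes were not worked out, so nothing is read from this difference. These are descriptions over genes, which are not independent replicates.

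By function, members of 7 lists had negative medians in all cases, which the choice of a stretch with mostly negative values made likely beforehand. Over all members 19.2% fell and 2.51% rose, against 5.53% and 4.61% of all genes tested. The counts by list were not tested against these shares, so nothing is read from them. Of 41 members for RNA processing and translation 40 had a negative log2 fold change, 9 fell, none rose and the median was −0.17, as over all members. The ribosomal protein gene Rps6 measured 1035, 1036 and 1083 CPM in shSCR and 883, 804 and 860 CPM in shPostn (log2 fold change −0.31, adjusted p = 0.0376, edgeR), and all its shPostn libraries were lower. Ybx1 (−0.26) and Rpl22 (−0.11) did not pass the test. The splicing cofactor gene Srrm1 (−0.24), the translation initiation factor genes Eif3i (−0.27) and Eif2b3 (−0.36), the pyrimidine synthesis gene Ctps (−0.29), the nucleolar genes Mrto4 (−0.34), Gnl2 (−0.29) and Nol9 (−0.25) and the tyrosyl-tRNA synthetase gene Yars (−0.58) fell. Of these, Yars was below the region (−0.39, adjusted p = 0.0128, edgeR). All 10570 genes above 4 CPM had a median of 0.01.

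Tumour suppressor and cell cycle genes had a median of −0.28 over 31 members, of which 10 fell, 1 rose and 20 did not pass. The kinesin Kif2c (−0.43), the chromosomal passenger gene Cdca8 (−0.49), the DNA repair gene Mad2l2 (−0.51), the augmin subunit Haus6 (−0.60) and the Ran exchange factor Rcc1 (−0.37) fell. So did the cell cycle transcription factor E2f2 (−0.56), the recombination repair gene Rad54l (−0.50), the inhibitor of cyclin-dependent kinases Cdkn2c (−0.32), the inhibitor of the caspase-activated DNase Dffa (−0.37) and Chd5. Cdca8 measured 76.5, 84.6 and 69.5 CPM in shSCR and 55.8, 56.1 and 52.5 CPM in shPostn, with no overlap. Of these, Haus6 and Chd5 were below the region and Mycl above it. The most read members, Rcc2 (−0.31) and Cdc42 (−0.08), did not pass. Among 35 transcription factor and chromatin genes (median −0.21) 6 fell and none rose. These were Nfib (−0.83), E2f2, the histone demethylase Kdm4a (−0.34), Nfyc (−0.29), Zbtb17 (−0.38) and the histone-binding Rbbp4 (−0.28). Jun, an AP-1 subunit and the member with the most reads, measured 2429, 1968 and 2837 CPM in shSCR and 3987, 2531 and 2616 CPM in shPostn, and the groups overlap (log2 fold change 0.34, adjusted p = 0.377, edgeR).

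Matrix genes were the most spread out. Over 11 members the median was −0.46 and the interquartile range 0.67, with values from −0.96 for Mmp23 to 0.98 for Tnc; 2 fell, 1 rose and 8 did not pass. Hspg2, which encodes the basement membrane proteoglycan perlecan and had more reads than any member but Jun, measured 2887, 2958 and 2740 CPM in shSCR and 1928, 2185 and 2134 CPM in shPostn. Its departure from the region was −0.28 (adjusted p = 0.0841, edgeR), while Agrn, the proteoglycan agrin, departed by −0.50 (adjusted p = 0.0458, edgeR). Col16a1 (−0.08) and Plod1 (0.005) did not pass. Among 23 receptor and signalling genes (median −0.12) the innate immune receptor Tlr4 (−0.41) and the kinase Map3k6 (−0.70) fell and Lepr, Leprot and Plpp3 rose. Patj and Rap1gap stood above the region by 0.81 and 0.72. Errfi1 (−0.30), a feedback inhibitor of EGF receptors, and the cytokine receptor kinase Jak1 (−0.14) did not pass.

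Metabolic and protein turnover genes stayed close to the regional value. Of 37 mitochondrial and metabolic members 33 were negative and 5 fell, with a median of −0.17. Mfn2, which fuses mitochondria, measured 96.6, 102 and 97.2 CPM in shSCR and 77.5, 79.5 and 79.4 CPM in shPostn (log2 fold change −0.32, adjusted p = 0.0135, edgeR). Slc25a33, Mecr (−0.53), Dhdds (−0.37) and Nudc (−0.23), known for its part in nuclear migration, fell too, and the glycolytic enzyme Eno1 (−0.24) and Akr1a1 (−0.01) did not pass. Of 28 members for protein folding and degradation 24 were negative and 6 fell, among them Clstn1 (−0.42), a membrane cargo adaptor, the peroxisome gene Pex14 (−0.38) and the deubiquitinase Usp24 (−0.24), with a median of −0.18. The others were Tmem39b (−0.34), Dnajc11 (−0.27) and Ube2j2 (−0.24), and none rose. Ubr4 (−0.16) and the actin-capping Capzb (0.02) did not pass. Other members with many reads also missed the threshold. Clic4, an intracellular chloride channel protein, measured 668, 647 and 698 CPM in shSCR and 599, 566 and 580 CPM in shPostn, all lower (log2 fold change −0.21, adjusted p = 0.0927, edgeR). Mxra8, a matrix remodelling membrane protein, measured 687, 743 and 736 CPM in shSCR and 816, 819 and 735 CPM in shPostn, and its groups overlap (log2 fold change 0.13, adjusted p = 0.324, edgeR).

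**Figure D5:**
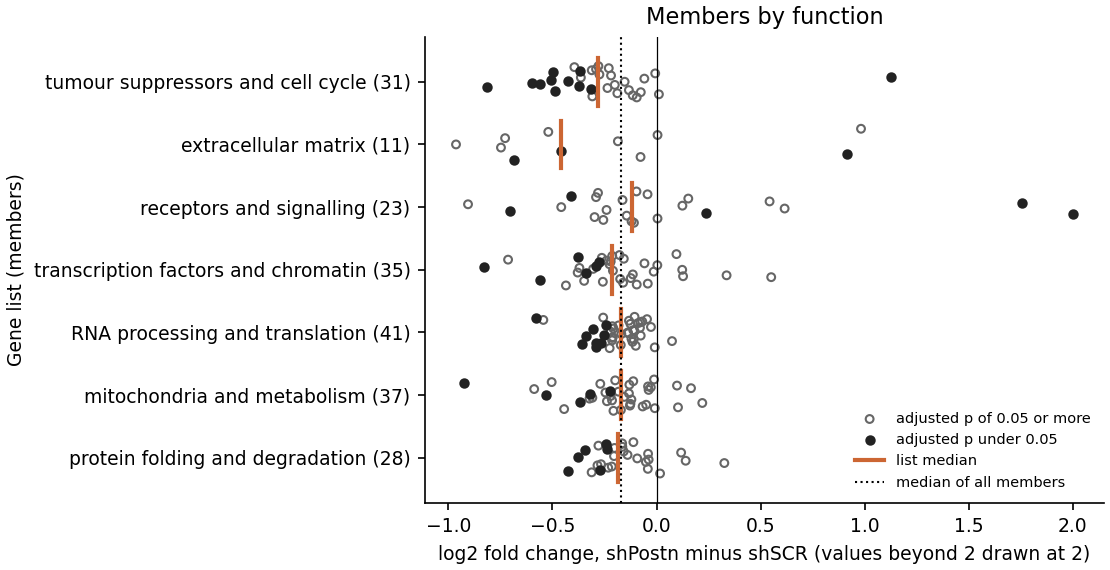
Log2 fold change of members by functional list; filled points passed the test (edgeR adjusted p under 0.05), orange bars are list medians, the dotted line is the median of all members (−0.17), and Lepr is drawn at the edge of the scale. List medians lie between −0.46 for matrix genes and −0.12 for receptors and signalling, and points of the RNA processing list sit closest together.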

How the data were processed

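The authors deposited estimated counts by Ensembl gene ID. The submitters' processing notes name Salmon and mm10. No version or annotation release is given in the sources used here. All values were whole numbers. Positions and symbols came from GENCODE M21 on GRCm38 for 35493 of 35727 gene IDs. Counts were tested with edgeR 4.0.16 (limma 3.58.1, R 4.3.3): filterByExpr (minimum count 10), TMM scaling, robust quasi-likelihood F-test of shPostn against shSCR, Benjamini-Hochberg adjustment and a threshold of 0.05. The common biological coefficient of variation was 0.183. CPM values divide counts by the TMM-scaled column total; the level of 4 CPM used column totals. SE is the size of the log2 fold change over the square root of F. For departures, each library's median deviation of the members (minus that of all genes above 4 CPM) was added to the offsets of distal genes. The script was tested on simulated data.

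Members, lists and tests were chosen with earlier results of these data known. Named genes are the 10 departing members farthest each way whose libraries do not overlap, the 10 with most reads, the 5 tested genes on each side of 60 Mb (the 2 nearest above 4 CPM are given) and the 2 on each side of 4 CPM, called and most read list members, and Postn; others were named after their values were seen. Some genes meeting it are not reported here. Lists share genes (Chd5, Arid1a, E2f2, Park7 and Usp1). Alternatives were other scaling, no filter, DESeq2 1.42.0, limma-voom, a replicate block, a leukocyte covariate, other region limits and levels, and each library left out. No batch is labelled.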

Additional observations from a re-analysis of the deposited data

How the results depend on the processing

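The median log2 fold change of the members was negative under the other scalings, levels and region limits, as a trimmed mean and with each library left out, from −0.19 without shPostn replicate 3 to −0.16 without shPostn replicate 1, and that of the proximal genes lay between −0.10 and −0.05 over the libraries left out. The distal minus proximal difference was −0.0912 above 20 CPM and −0.0952 with the limit at 70 Mb, and between −0.1134 and −0.0872 with 1 library left out. DESeq2 called 1973 genes instead of 1300, 21 members that rose and 49 above the region. With 1 library left out, the calls ran from 307 to 2220 over all genes, from 13 to 133 for members that fell, from 5 to 16 for those that rose, from 7 to 47 above the region and from 5 to 26 below it. With the replicate number as a block, 735 genes changed, 46 members fell, 17 were above the region and 11 below. The labels give no shared animal or day. Deviations of same-numbered libraries correlated at −0.004, −0.083 and −0.477, and no library correlated best with its own number. With 3 libraries per group these values cannot show whether same-numbered libraries share an animal or day. The pan-leukocyte covariate gave 105 members that fell and 11 that rose. Members with the fewest reads had the widest spread (interquartile range 0.37).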

Other observations

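Genes of distal chromosome 4 at or below 4 CPM were not members. Of the 91 tested, 11 fell, 3 rose and 59 had a negative log2 fold change, with a median of −0.20. Over all genes tested 5.53% fell and 4.61% rose. The stretch was chosen by mostly negative fold changes, so nothing is read from these counts. The genes named next were picked after their values were seen. Gpx7, a glutathione peroxidase family gene of the endoplasmic reticulum, had 349 counts over the shSCR libraries and 25 over the shPostn libraries (edgeR adjusted p = 0.0113). Ptpru, a receptor-type tyrosine phosphatase, had 170 and 35 counts and the actin-bundling gene Espn 234 and 31. Dmrtb1 had 163 counts against 7 and Extl1, an exostosin-like glycosyltransferase gene, 139 against 6. Gpx7, Ptpru, Espn, Dmrtb1 and Extl1 passed the count filter only through the shSCR libraries. Genes that low in shPostn had to be higher in shSCR to be tested. Prkaa2, a catalytic subunit of the energy-sensing AMP-activated kinase, rose from 132 to 240 counts, the ubiquitin ligase subunit gene Fbxo2 from 124 to 260 and the zinc finger gene Zfp985 from 53 to 181.

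The cell cycle inhibitor genes Cdkn2a and Cdkn2b were hardly read in any library, unlike the member Cdkn2c. Cdkn2a (chromosome 4, 89274471 to 89294653) had 2 counts and Cdkn2b (89306299 to 89311039) 0 of 119854238 counts over the 6 libraries, and a count of 0 allows up to 0.025 CPM (3 counts over all libraries; counting error only). Mtap, the neighbouring gene at 89137122 to 89181081, measured 463, 397 and 377 CPM in shSCR and 391, 415 and 381 CPM in shPostn, and its groups overlap. Trp73, the p53 paralogue near the end of the chromosome, had 5, 0 and 3 counts in the shSCR libraries and 0 in each shPostn library. Its groups overlap at 0, and so few counts show no difference.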
